A study of Mus musculus with 8 samples.

Results

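Keratins are the intermediate filament proteins of epithelial cells, and the genes described here are the 5 that mark the epithelia of the liver: Krt8, Krt18, Krt19, Krt23 and Krt7. They were taken by gene name from the 56748 genes of a count table of mouse primary hepatocytes. Hepatocytes of wild-type (WT) and Yap/Taz knockout (KO) mice were cultured for 24 h on collagen-coated polyacrylamide hydrogels of 1 kPa (soft) or 20 kPa (stiff), and the mRNA of 2 libraries in each of the 4 groups was sequenced. Both genotypes carried floxed Yap and Taz alleles on the C57BL/6J background. The mice were 7 to 8 weeks old and received an intravenous AAV8 vector 10 days before the hepatocytes were isolated, with Cre for the KO (AAV8-TBG-Cre) and without it for the WT (AAV8-TBG-Null). The TBG promoter drives Cre in hepatocytes, so that other liver cells in a preparation keep the floxed alleles. The labels give the sex of the mice as male in one place and female in another, and do not say whether replicate libraries came from separate mice. The p-values therefore measure the spread between these libraries, which may be technical.

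A keratin filament is built from obligate pairs of a type II and a type I keratin. Krt8 and Krt7 are type II, and Krt18, Krt19 and Krt23 are type I. Adult hepatocytes are known to hold a simple network of Krt8 with Krt18, which protects them from mechanical and toxic stress, whereas bile duct cells (cholangiocytes) add Krt7 and Krt19 and are commonly recognised by them. Krt23 is a type I keratin known to be induced in injured liver. Yap1 and Wwtr1 (TAZ) are transcriptional coactivators that move to the nucleus of cells on a stiff matrix and act mainly through TEAD factors.

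Krt8 and Krt18 are neighbours in the deposited table, on chromosome 15 with 23697 bases between them. Krt8 (ENSMUSG00000049382) lies on the minus strand at chr15:101905133-101912917 and Krt18 (ENSMUSG00000023043) on the plus strand at chr15:101936615-101940462, so that the only type I keratin of the type II cluster starts beside its partner. Krt7 (ENSMUSG00000023039) is on the plus strand of the same chromosome at chr15:101308924-101328194. Krt19 (ENSMUSG00000020911, chr11:100031636-100039491) and Krt23 (ENSMUSG00000006777, chr11:99368800-99383963) are both on the minus strand of chromosome 11. These are whole-gene intervals as the table gives them. The submitters' notes name mm9 as the build, but the positions were not matched to a build here, and they differ from the GRCm38 annotation for all 5 genes.

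The promoters of Krt8 and Krt18 are shown because these genes moved together in the libraries, and that of Krt7 because it is the member with almost no counts. Each runs from 250 bases before to 50 bases after the annotated start, read 5′ to 3′ on the gene's own strand. They are RefSeq sequences on GRCm38.p6, at chr15:102004293-102004592 (Krt8, minus strand), chr15:102027966-102028265 (Krt18, plus strand) and chr15:101412153-101412452 (Krt7, plus strand). Capitals mark matches to the searched motifs, on either strand.
Krt8: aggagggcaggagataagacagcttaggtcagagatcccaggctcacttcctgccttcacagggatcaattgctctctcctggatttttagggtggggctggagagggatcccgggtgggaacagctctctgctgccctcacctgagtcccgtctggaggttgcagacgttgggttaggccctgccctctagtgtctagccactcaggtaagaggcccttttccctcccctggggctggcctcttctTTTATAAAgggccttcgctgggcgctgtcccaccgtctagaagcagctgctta
Krt18: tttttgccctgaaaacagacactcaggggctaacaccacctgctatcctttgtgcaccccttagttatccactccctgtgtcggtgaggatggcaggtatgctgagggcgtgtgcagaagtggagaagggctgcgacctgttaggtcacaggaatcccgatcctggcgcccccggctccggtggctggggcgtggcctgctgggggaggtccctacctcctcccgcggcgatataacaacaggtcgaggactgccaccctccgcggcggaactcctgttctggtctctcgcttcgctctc
Krt7: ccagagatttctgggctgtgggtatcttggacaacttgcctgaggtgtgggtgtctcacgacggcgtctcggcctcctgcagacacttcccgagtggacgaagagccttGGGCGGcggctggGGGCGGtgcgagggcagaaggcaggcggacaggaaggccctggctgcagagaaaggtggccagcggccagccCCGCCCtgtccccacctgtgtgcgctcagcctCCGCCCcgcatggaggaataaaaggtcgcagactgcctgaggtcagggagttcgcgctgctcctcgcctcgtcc

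RefSeq promoters were matched for 4 of the 5 genes (Krt8, Krt18, Krt7 and Krt23). 3 motifs were searched on both strands, GGAATG for TEAD, TGANTCA for AP-1 and GGGCGG for Sp1 and KLF factors. Neither GGAATG nor TGANTCA occurred in any of these 4 windows, and they are in 14.7% and 7.81% of all 32851 promoter windows of this length. GGGCGG occurred 4 times in the Krt7 window and in no other member's, against 35.7% of all windows with a match. The motif TATAAA was added after the sequences had been seen, and it is in 13.6% of all windows. It matched on both strands of the Krt8 window in an overlapping stretch at the annotated start, and in none of the other 3 windows. These are matches of letters and not binding sites, and a window without a match says nothing of the factor. The share of G and C was 58.0% in Krt8, 61.3% in Krt18, 66.3% in Krt7 and 53.0% in Krt23.

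Library totals ran from 18324083 to 26442310 counts, and 3 counts, the limit that a count of 0 allows, came to between 0.116 and 0.167 CPM (a library's counts scaled to its TMM-normalized total). That limit and the intervals of single libraries cover counting error only. The knockout was checked first. Yap1 stood at 95.5 to 140 CPM in the 4 WT libraries and at 28.4 to 31.8 CPM in the 4 KO libraries, and Wwtr1 at 41.5 to 65.2 CPM and 13.7 to 16.6 CPM, so both were lower in every KO library than in any WT library. Hepatocyte markers such as albumin were abundant in all 8 libraries. The 9 of 10 listed hepatocyte genes that could be used summed to 91352 to 91885 CPM in WT soft, 93665 to 95252 in WT stiff, 64128 to 64557 in KO soft and 63899 to 64069 in KO stiff. Albumin made up most of each sum, with means of 81923, 86595, 54977 and 54678 CPM in the same order. The sums therefore say little of the other genes of the list, such as Hnf4a with means of 372, 189, 423 and 426 CPM.

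Krt8, the type II partner of the hepatocyte network, was among the most abundant mRNAs of these cells. It was read at 5213 and 5513 CPM in WT soft, 7957 and 7918 CPM in WT stiff, 4003 and 3967 CPM in KO soft, and 4100 and 4147 CPM in KO stiff. Both WT stiff libraries were above all the others, and all 4 KO libraries were below the 2 WT soft libraries. The raw counts behind these levels were between 79766 and 165025 per library. Krt8 has a pseudogene in the table, Krt8-ps, with which 24.2% of the 64-base windows of its longest transcript are shared. Krt8-ps held a mean of 131 counts, and how reads matching both genes were counted is not known, which leaves the Krt8 level uncertain by such reads. An overlapping lncRNA on the other strand, Gm36026, held 16 to 30 counts.

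Krt18, the type I partner, followed the same order. It was read at 3477 and 3572 CPM in WT soft, 6027 and 5889 CPM in WT stiff, 2545 and 2524 CPM in KO soft, and 2599 and 2647 CPM in KO stiff. The WT stiff libraries were again above, and the KO libraries below, the WT soft pair, and no library of one WT group overlapped another group. Together Krt8 and Krt18 took 0.873% of all counts in WT soft, 1.36% in WT stiff, 0.665% in KO soft and 0.686% in KO stiff. By CPM per kilobase of gene length, ranked over the 14279 tested genes, Krt8 was number 15 and Krt18 number 16 in WT soft. They were number 7 and number 5 in WT stiff, and between number 19 and number 26 in the KO groups.

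Krt19, the type I keratin of bile ducts, was scarce and, in every comparison but that of the hydrogels in the KO, had the largest fold of the 4 tested keratins. It was read at 1.81 and 2.44 CPM in WT soft, 21.02 and 20.1 CPM in WT stiff, 0.429 and 0.845 CPM in KO soft, and 0.703 and 0.692 CPM in KO stiff. These are 47 and 44, 436 and 396, 11 and 17, and 15 and 14 counts. The 2 WT stiff libraries stood far above the rest, WT soft lay between, and the KO soft and KO stiff libraries overlapped each other. Every library was above the limit of 3 counts.

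Krt23 was near the lower end of what the libraries could measure. It was read at 0.424 and 1.28 CPM in WT soft, 1.45 and 1.73 CPM in WT stiff, 1.25 and 1.69 CPM in KO soft, and 1.12 and 1.43 CPM in KO stiff, from 11 to 34 counts a library. The 2 WT soft libraries were the most unlike pair, with 95% exact Poisson intervals of 0.211 to 0.758 and 0.810 to 1.92 CPM that did not meet. The KO soft libraries overlapped those of WT stiff and of KO stiff. Both WT stiff libraries were above both KO stiff libraries, but the closest were at 1.45 and 1.43 CPM, from 30 and 29 counts. Their exact Poisson intervals, 0.976 to 2.06 and 0.960 to 2.06 CPM, overlapped almost fully.

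Krt7, the type II keratin of bile ducts, was at the limit of detection. It had 2 and 1 counts in WT soft, 2 and 0 in WT stiff, 1 and 0 in KO soft, and 1 and 3 in KO stiff, which is 10 counts in all. No library exceeded 3 counts, so Krt7 did not pass the filter on low counts and no fold is given. A difference in Krt7 was not detectable at this depth. Of the 5 genes, 4 were therefore tested.

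**Figure D1:**
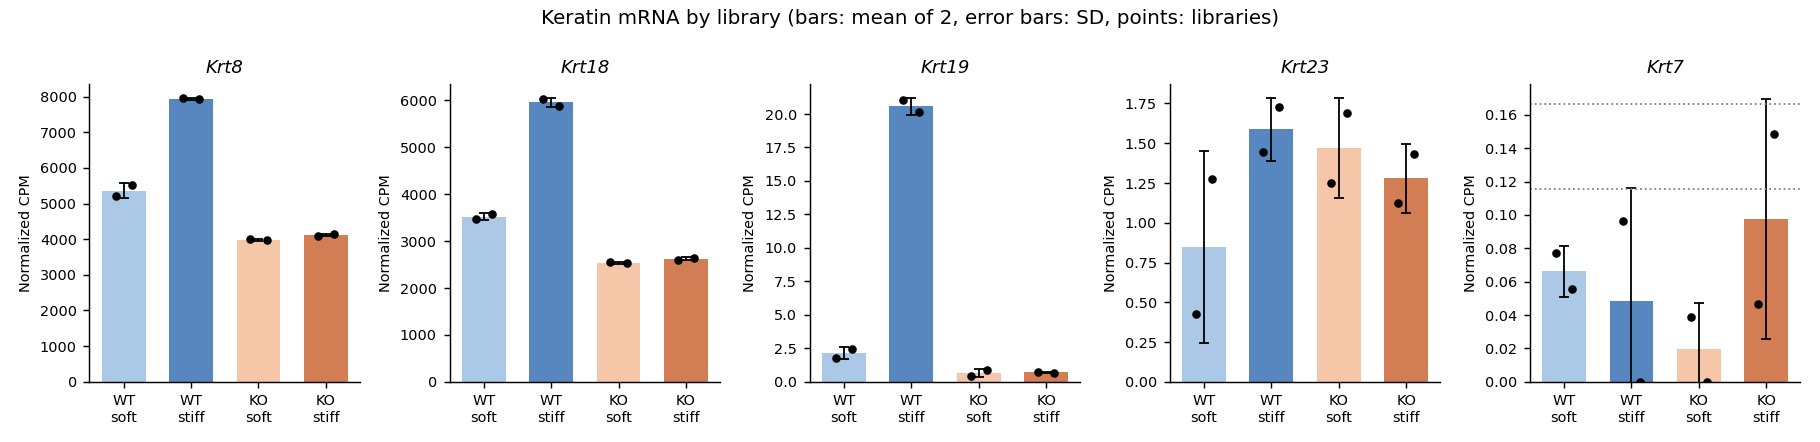
Normalized CPM (linear vertical axes, each panel with its own range) of Krt8, Krt18, Krt19, Krt23 and Krt7 in the 4 groups; points are libraries, bars the mean of 2 and error bars the SD, cut off at 0. WT stiff is highest for Krt8 (7937 CPM), Krt18 (5958 CPM) and Krt19 (20.6 CPM), and the 2 dotted lines for Krt7 are the lowest and highest CPM that 3 counts came to (0.116 and 0.167).

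The scales of the members were set side by side per length, since a longer mRNA gives more reads. In WT soft the mean levels were 2739 ± 109 CPM per kilobase for Krt8, 2452 ± 46.7 for Krt18, 1.15 ± 0.242 for Krt19 and 0.543 ± 0.386 for Krt23 (SD, n = 2). In WT stiff they were 4054 ± 13.9, 4146 ± 68.1, 11.1 ± 0.344 and 1.01 ± 0.127 CPM per kilobase in the same order (SD, n = 2). The hepatocyte pair thus exceeded the other members by orders of magnitude in both groups. Krt19 made up 0.0220% of the summed level of the 5 genes in WT soft and 0.135% in WT stiff, and 0.00905% in KO soft and 0.00956% in KO stiff. The summed level of the 5 genes was 5193 ± 156 CPM per kilobase in WT soft, 8212 ± 82.2 in WT stiff, 3800 ± 22.9 in KO soft and 3932 ± 40.9 in KO stiff (SD, n = 2).

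The balance of the pair differed in WT stiff. The ratio of Krt8 to Krt18, per length, was 1.10 and 1.13 in WT soft, 0.969 and 0.987 in WT stiff, 1.15 and 1.15 in KO soft, and 1.16 and 1.15 in KO stiff. By this measure Krt8 was in excess in 6 libraries and Krt18 in the 2 of WT stiff, which lay below all others. Between the WT groups the mean ratio went from 1.12 ± 0.0230 to 0.978 ± 0.0127 (SD, n = 2), a difference for which an exact permutation test of 2 against 2 libraries cannot give a two-sided p under 0.333. The absolute value of the ratio, and so which gene is in excess, depends on the gene lengths in the table. It also depends on how reads shared by Krt8 and Krt8-ps were counted, which is not known. The order of the ratio between libraries does not depend on the gene lengths. Krt19 per 1000 Krt18 was 0.403 and 0.530 in WT soft, 2.70 and 2.65 in WT stiff, 0.131 and 0.259 in KO soft, and 0.209 and 0.202 in KO stiff. Krt19 was therefore a small fraction of the type I keratin mRNA in every library, and highest in WT stiff.

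**Figure D2:**
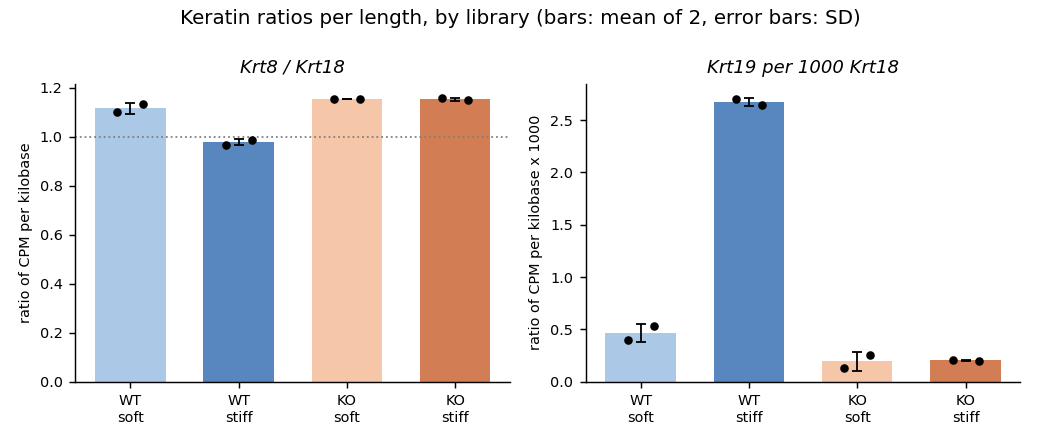
Ratio of CPM per kilobase of Krt8 to Krt18 (left; the dotted line is equality) and of Krt19 to Krt18 times 1000 (right) in the 4 groups, on linear axes from 0; points are libraries, bars the mean of 2 and error bars the SD. The WT stiff libraries are the only ones below equality on the left (0.969 and 0.987) and reach 2.70 and 2.65 on the right.

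The first comparison asked what a stiff matrix did in WT hepatocytes. Of the 4 keratins tested, 3 rose on the stiff hydrogel, Krt8, Krt18 and Krt19, where 10.0% of all tested genes were called higher, 9.26% lower and 19.3% in either direction. A gene was called at an adjusted p under 0.05 (edgeR's quasi-likelihood test, Benjamini-Hochberg over 14279 genes) and an absolute log2 fold change over 0.5. Krt19 rose 9.83-fold, a log2 fold change of 3.30 (SE 0.195, 95% confidence interval 2.88 to 3.71, edgeR adjusted p = 1.64e-10), and was number 24 of the 14279 genes by size of the rise. Krt18 rose 1.69-fold (log2 fold change 0.76, SE 0.0263, edgeR adjusted p = 1.11e-13). Krt8 rose 1.48-fold (log2 fold change 0.57, SE 0.0266, edgeR adjusted p = 6.74e-12), just past the threshold on the fold. Krt23 had a log2 fold change of 0.98 with an SE of 0.444 (interval 0.04 to 1.91) and was not called (edgeR adjusted p = 0.0889). This value depends on the 2 unlike WT soft libraries (0.424 and 1.28 CPM). With 1 library left out in turn it ranged from 0.32 to 1.89, the highest without WT soft replicate 2. With no filter on low counts it was 0.99 and past the threshold (edgeR adjusted p = 0.0357).

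In Yap/Taz KO hepatocytes the same change of hydrogel called none of the 4 keratins, where 0.0210% of all tested genes were called in either direction, 0.0140% higher and 0.00700% lower. None had an unadjusted p under 0.05 in edgeR, and DESeq2 called 0 of them as well. The log2 fold change of Krt8 was 0.05 (95% interval -0.01 to 0.11) and that of Krt18 also 0.05 (-0.01 to 0.10), so the intervals lie below the rises in WT. For Krt19 the interval was wide, from -0.62 to 0.98 around 0.18 (SE 0.379), and for Krt23 it ran from -1.06 to 0.68 around -0.19. The sign of the Krt19 value turned when 1 library was left out (-0.28 without KO soft replicate 1), as did that of Krt23 (0.03 without KO soft replicate 2).

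The difference between these stiffness effects was itself tested, as the interaction of genotype and stiffness. It was negative, that is, a smaller rise in KO than in WT, for the same 3 genes, where 8.21% of all tested genes were called lower, 8.64% higher and 16.8% in either direction. It was -3.12 on the log2 scale for Krt19 (SE 0.447, edgeR adjusted p = 3.22e-05), -0.71 for Krt18 (SE 0.0370, edgeR adjusted p = 8.81e-11) and -0.52 for Krt8 (SE 0.0376, edgeR adjusted p = 7.00e-09). The Krt8 value is close to the threshold on the size and fell below it without WT soft replicate 1 (-0.49). For Krt23 the value was -1.17 (SE 0.608, edgeR adjusted p = 0.167). With 1 library left out in turn it ranged from -2.09, without WT soft replicate 2, to -0.51.

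KO and WT cells were then compared on the same hydrogel. On the stiff hydrogel, 3 of the 4 tested keratins were lower in KO, where 15.0% of all tested genes were called lower, 13.7% higher and 28.7% in either direction. Krt19 was 29.3-fold lower (log2 fold change -4.87, SE 0.234, edgeR adjusted p = 4.09e-12), Krt18 2.27-fold lower (-1.18, SE 0.0265, edgeR adjusted p = 8.95e-17) and Krt8 1.92-fold lower (-0.94, SE 0.0268, edgeR adjusted p = 2.41e-15). Krt23 did not pass (-0.31, SE 0.416, edgeR adjusted p = 0.562). On the soft hydrogel only Krt19 was called, where 4.65% of all tested genes were called lower, 2.02% higher and 6.67% in either direction. It was 3.37-fold lower (log2 fold change -1.75, SE 0.304, edgeR adjusted p = 0.000360). Krt18 (-0.48, SE 0.0262, edgeR adjusted p = 2.68e-10) and Krt8 (-0.43, SE 0.0266, edgeR adjusted p = 1.23e-09) had small p-values but differed by less than the threshold of 0.5. Krt23 had a value of 0.86 (SE 0.443, edgeR adjusted p = 0.211) and was not called. With 1 library left out in turn this value ranged from 0.19 to 1.77, the highest without WT soft replicate 2. Albumin, a hepatocyte marker that made up most of the summed level of its list, was also called lower in KO on both hydrogels (log2 fold change -0.58, SE 0.0142 on soft and -0.66, SE 0.0142 on stiff), and its part in the keratin results was not tested. The 5 comparisons share libraries, so that a high or low group enters several of them.

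**Figure D3:**
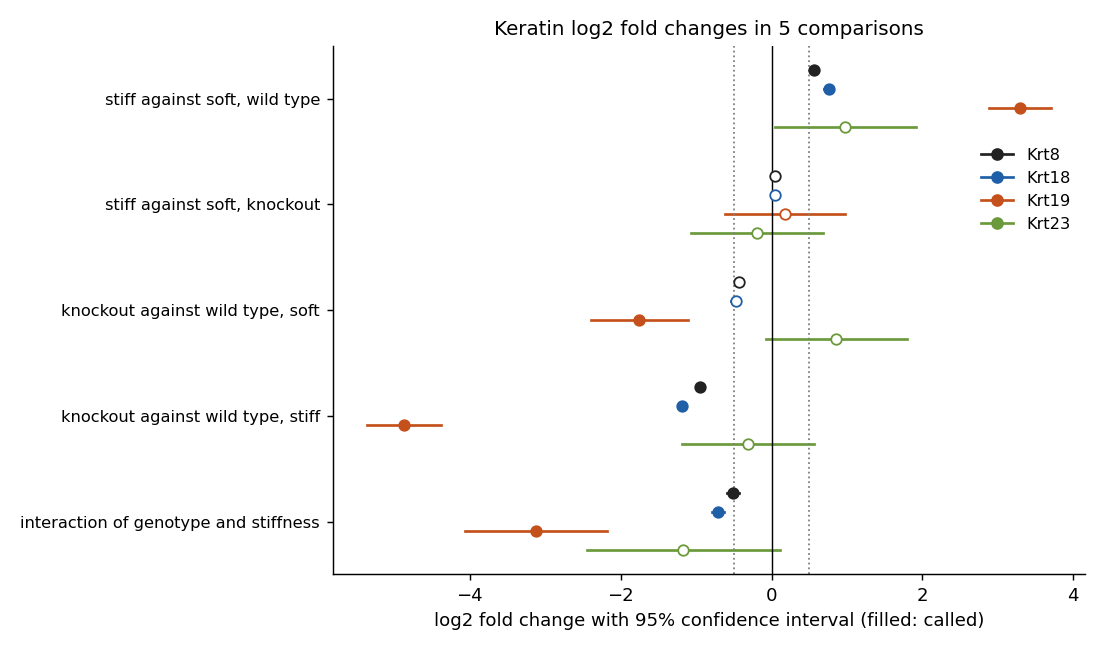
Log2 fold changes of the 4 tested keratins in the 5 comparisons (horizontal axis, log2 units), with 95% confidence intervals as lines; filled points passed both thresholds and the dotted lines are -0.5 and 0.5. Krt19 spans 3.30 to -4.87, Krt8 and Krt18 lie within -1.18 to 0.76, all 4 genes in the KO stiffness comparison are unfilled, and Krt23 is unfilled throughout.

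The order of the groups was thus WT stiff, WT soft and then the KO groups for Krt8, Krt18 and Krt19. The KO stiff and KO soft libraries overlapped for Krt19, whereas for Krt8 and Krt18 both KO stiff libraries lay slightly above both KO soft libraries, a difference that was not called. Across the 8 libraries the log2 CPM of these 3 genes followed one another, with Pearson's r of 0.998 for Krt8 and Krt18, 0.989 for Krt8 and Krt19 and 0.992 for Krt18 and Krt19. Krt23 had r between 0.122 and 0.208 with them. These coefficients are descriptions over 8 libraries that fall into 4 groups, and the group differences make up most of them. Among genes with a mean of at least 100 counts, those most like Krt8 were Uck2 (r = 0.999), Fgd3 (0.998) and Krt18 itself (0.998). Those most like Krt18 were Fgd3, Icam1 and Cgn (0.999 each), and those most like Krt19 included Tubb6 (0.997) and Smo (0.996). Cgn encodes the tight junction protein cingulin and Icam1 an adhesion receptor for leukocytes. Fgd3 stood at 51.1 ± 1.19 CPM in WT soft, 265.9 ± 2.95 in WT stiff, 15.6 ± 0.282 in KO soft and 18.3 ± 2.05 in KO stiff (SD, n = 2). The best match of Krt23, Gm6563, reached r = 0.933, followed by Ttc32 (0.913) and Csnk2a1-ps3 (0.904).

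Most of the rest of the keratin family had few or no counts, while Krt5 reached 1226. The table lists 54 keratin genes, 27 each on chromosomes 11 and 15, of which 39 never exceeded 3 counts and 19 had any count. Of the 49 outside the 5 genes above, 5 passed the filter: Krt5, Krt10, Krt17, Krt24 and Krt80. In WT stiff against soft, 2 rose and 2 fell, in the KO 0 were called (0 at an unadjusted p under 0.05 in edgeR, 0 in DESeq2), and in KO against WT 1 rose on the soft hydrogel and 2 rose and 2 fell on the stiff. DESeq2 called 4 in WT, 1 in KO against WT on soft and 3 on stiff. Of all tested genes, edgeR called 19.3% in WT, 0.0210% in the KO, 6.67% in KO against WT on soft and 28.7% on stiff.

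Krt5, the type II keratin of basal cells in stratified epithelia, was the most abundant of these and ran opposite to Krt8. It was read at 23.3 and 25.5 CPM in WT soft, 8.49 and 7.32 CPM in WT stiff, 47.8 and 47.8 CPM in KO soft, and 47.7 and 46.8 CPM in KO stiff. The WT stiff libraries were below all others and the KO libraries above all WT libraries. Krt5 fell on the stiff hydrogel in WT (log2 fold change -1.62, SE 0.0959, edgeR adjusted p = 1.58e-10) and was not called in the KO (-0.02), with an interaction of 1.60 (SE 0.121, edgeR adjusted p = 1.10e-08). It was higher in KO than in WT on the soft hydrogel (0.97, SE 0.0774) and on the stiff (2.58, SE 0.0911, edgeR adjusted p = 4.97e-14). Of its transcript windows 6.70% are shared with 4 other genes, and none of those had a count.

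Krt17 and Krt80, a type I and a type II keratin of other epithelia, had few counts. In WT stiff against soft, and in KO against WT on stiff, they moved in the direction of Krt19. In KO against WT on soft neither was called, and Krt17 had the opposite sign to Krt19 (0.78, SE 0.865) and Krt80 the same sign (-3.17, SE 1.27). Krt17 had 3 and 4 counts in WT soft, 30 and 19 in WT stiff, 10 and 3 in KO soft, and 11 and 2 in KO stiff. It rose on the stiff hydrogel in WT (log2 fold change 2.87, SE 0.705, edgeR adjusted p = 0.00311) and was lower in KO stiff than in WT stiff (-1.94, SE 0.631). Krt80 had 10 and 1, 43 and 26, 0 and 1, and 3 and 2 counts in the same order of groups. It rose on the stiff hydrogel in WT (2.77, SE 0.613, edgeR adjusted p = 0.00133) and was lower in KO stiff than in WT stiff (-3.76), where the counts give a ratio of 14.2 with an interval of 5.80 to 45.1. For neither was the interaction called (edgeR adjusted p = 0.0676 for Krt17 and 0.926 for Krt80).

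Krt24, a type I keratin on chromosome 11, had the direction of Krt5 in WT stiff against soft and in KO against WT on stiff. In KO against WT on soft, where Krt5 was called higher, Krt24 was not called (0.11, SE 0.556, edgeR adjusted p = 0.928). It had 13 and 17 counts in WT soft, 0 and 3 in WT stiff, 24 and 11 in KO soft, and 19 and 32 in KO stiff. It was called lower on the stiff hydrogel in WT and higher in KO stiff than in WT stiff, but these rest on 3 counts in WT stiff, and the counts give ratios of 9.19 (interval 2.86 to 47.1) and 16.5 (5.34 to 82.8). Its interaction was 3.84 (SE 1.02, edgeR adjusted p = 0.00843). Krt10, a keratin of differentiated epidermis, had 37 to 62 counts a library and was not called in any of the 5 comparisons.

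**Figure D4:**
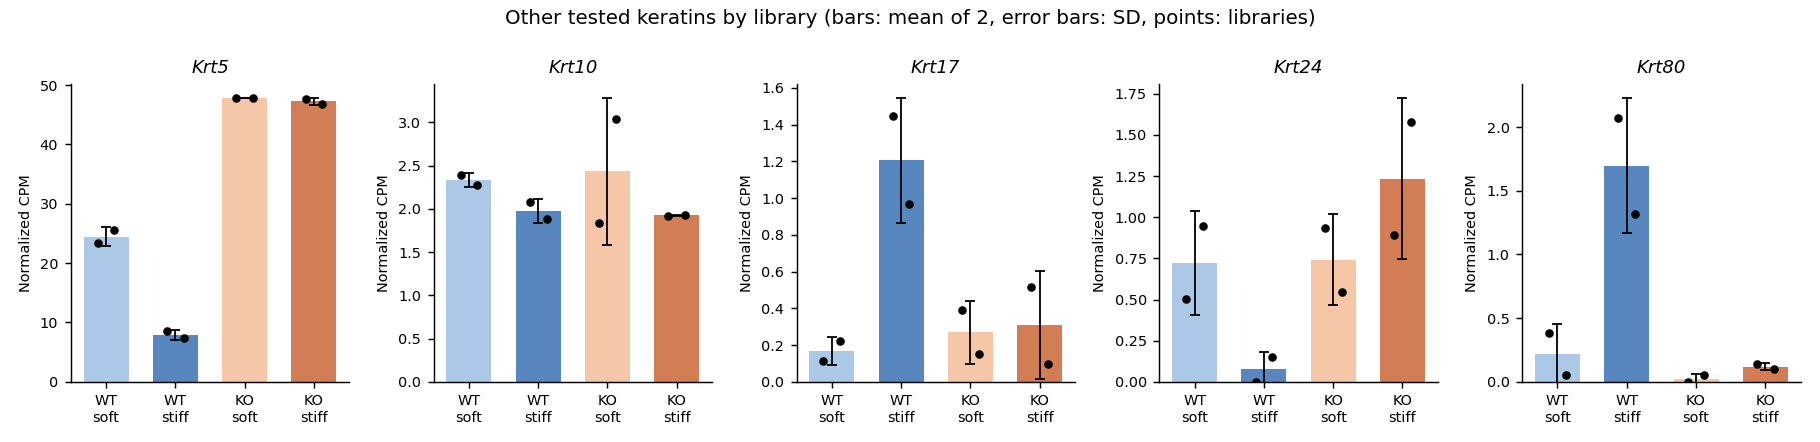
Normalized CPM (linear axes from 0, each panel with its own range) of the 5 other tested keratins in the 4 groups; points are libraries, bars the mean of 2 and error bars the SD, cut off at 0. Krt5 is lowest in WT stiff (7.90 CPM) and highest in KO soft (47.8 CPM), Krt17 and Krt80 are highest in WT stiff and Krt24 lowest there.

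Among the other intermediate filaments and the lamins (9 genes, 8 tested), 4 rose and 1 fell on the stiff hydrogel in WT. DESeq2 called 4 of them, and edgeR called 19.3% of all tested genes. The median log2 fold change was 0.45 against -0.01 for all genes. Vim, the filament of mesenchymal and dedifferentiating cells, was at 637 and 657 CPM in WT soft, 1292 and 1313 in WT stiff, 624 and 626 in KO soft, and 658 and 625 in KO stiff. Only WT stiff stood apart. Vim rose in WT (1.01, SE 0.0360), with an interaction of -0.97 (SE 0.0507, edgeR adjusted p = 8.75e-11), and was not called between KO and WT on the soft hydrogel (-0.05, edgeR adjusted p = 0.384). Nes, a filament of progenitor cells, rose most (2.66, SE 0.160), from 5.08 and 4.50 CPM to 31.6 and 29.3 CPM, and Lmnb1 and Lmnb2 of the nuclear lamina rose by 1.54 and 0.64. Prph, a neuronal filament with 2 and 3 counts in WT stiff, was called lower (-1.96), and was the highest of the list in KO against WT on the stiff hydrogel (3.16, SE 0.616). In the KO 0 of the 8 were called (0 at an unadjusted p under 0.05 in edgeR, 0 in DESeq2), where 0.0210% of all tested genes were called. In KO against WT, 1 fell on the soft hydrogel, where 6.67% of all tested genes were called in either direction. On the stiff, where 28.7% were called, 3 rose and 4 fell, Nes by the most (-3.39, SE 0.173), and DESeq2 called 6.

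Genes that anchor keratins to desmosomes and the cytoskeleton moved in both directions. Of 17 such genes (16 tested), 2 rose and 3 fell on the stiff hydrogel in WT, with a median of -0.05. DESeq2 called 4 of them, and edgeR called 19.3% of all tested genes. Pkp2, a desmosomal plakophilin, was at 95.8 and 93.5 CPM in WT soft, 134 and 142 in WT stiff, 72.9 and 76.0 in KO soft, and 74.6 and 75.6 in KO stiff. It had the order of Krt8, with a rise of 0.55 (SE 0.0512) in WT and a lower level in KO than in WT on the stiff hydrogel (-0.88, SE 0.0521). Pkp3, the sister plakophilin, had 76 counts in WT soft and 35 in WT stiff, each summed over 2 libraries. Its change in WT was the lowest of the list (-0.98, SE 0.383, edgeR adjusted p = 0.0482) and the highest in KO against WT on the stiff hydrogel (1.26, SE 0.375). The more abundant Dsg2 fell in WT from a mean of 257 to 177 CPM (-0.54, SE 0.0424). It was higher in KO than in WT on the stiff hydrogel (0.52, SE 0.0424). Ppl also fell in WT (-0.53, SE 0.0937). The main linkers of hepatocyte keratins to desmosomes and plectin sites, Dsp, Jup and Plec, were not called. Eppk1, which encodes the keratin-binding epiplakin, was lower in KO on both hydrogels (-0.997, SE 0.122 on soft and -1.19, SE 0.119 on stiff), and its rise of 0.47 in WT was below the threshold. In KO stiff against soft 0 of the 16 were called (3 at an unadjusted p under 0.05 in edgeR, 0 in DESeq2), where 0.0210% of all tested genes were called. On the soft hydrogel 2 were lower in KO and none higher, and on the stiff 3 were lower and 2 higher. Of all tested genes, 6.67% were called on soft and 28.7% on stiff.

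The last list held genes of keratin inclusions, the Mallory-Denk bodies of injured hepatocytes, and the chaperones that handle keratins (10 genes, all tested). In WT 3 rose and 1 fell on the stiff hydrogel, with a median of -0.16, where 19.3% of all tested genes were called. Cryab, a small heat shock protein known to bind intermediate filaments, had 44 and 54 counts in WT soft, 317 and 311 in WT stiff, 23 and 36 in KO soft, and 39 and 24 in KO stiff. It rose by 2.77 (SE 0.249) in WT and was lower in KO than in WT on the stiff hydrogel (-3.36, SE 0.266). Hspb1, another small heat shock protein, rose by 1.53 and Tgm2, the transglutaminase that cross-links keratins, by 0.89, and Hspa1b fell. Sqstm1, the most abundant gene of the list, had means of 3002 CPM in WT soft, 2269 in WT stiff, 2908 in KO soft and 2952 in KO stiff. Its change of -0.40 in WT (SE 0.0265, edgeR adjusted p = 6.72e-10) was below the threshold on the fold, as was that of 0.38 in KO against WT on stiff (SE 0.0265). Hspa1a, an inducible heat shock chaperone, had 10 and 9 counts in WT soft, 3 and 3 in WT stiff, 14 and 4 in KO soft, and 12 and 17 in KO stiff. Its value of -1.52 in WT did not pass (edgeR adjusted p = 0.125), and it was called higher in KO than in WT on the stiff hydrogel (2.19, SE 0.711), where WT stiff is at 3 counts a library. In the KO 0 of the 10 were called (2 at an unadjusted p under 0.05 in edgeR, 0 in DESeq2), where 0.0210% of all tested genes were called. In KO against WT 0 were called on soft (5 at an unadjusted p under 0.05 in edgeR, 0 in DESeq2), and on stiff 3 rose and 3 fell (5 called by DESeq2). Of all tested genes, 6.67% were called on soft and 28.7% on stiff.

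Krt19 is a marker of bile duct cells, so the other genes of that cell type were read beside it. Of 12 cholangiocyte genes, 8 were tested, and in WT 3 rose (Pkhd1 1.28, Cldn4 1.00 and Prom1 0.71) and 1 fell on the stiff hydrogel (Muc1 -2.53, from 13 and 13 to 2 and 2 counts). DESeq2 called 2 of this list, and edgeR called 19.3% of all tested genes. The summed level of the 12 cholangiocyte genes was 726 to 754 CPM in WT soft, 912 to 920 in WT stiff, 557 to 566 in KO soft and 541 to 543 in KO stiff, most of it from Spp1. The largest parts of this sum had orders of their own: Cldn4 was at 144 and 147 CPM in WT soft, 293 and 290 in WT stiff, 185 and 196 in KO soft and 195 and 187 in KO stiff, and Spp1 differed by 0.04 between the WT groups. Pkhd1, the fibrocystin gene of the bile duct cilium, was at 7.01 and 6.66, 17.2 and 16.0, 3.90 and 3.83, and 3.75 and 4.60 CPM in WT soft, WT stiff, KO soft and KO stiff. It and Prom1 and Spp1 were called lower in KO on both hydrogels, and Cldn4 on the stiff, which is 3 of 8 on soft and 4 of 8 on stiff. Of all tested genes, 6.67% were called on soft and 28.7% on stiff. On the soft hydrogel Cldn4 had a higher level in KO, by 0.39 (edgeR adjusted p = 5.19e-06), below the threshold on the fold. In the KO 0 of the 8 were called (1 at an unadjusted p under 0.05 in edgeR, 0 in DESeq2), where 0.0210% of all tested genes were called.

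Other defining genes of the bile duct were at or near 0 or were not called. Cftr, the chloride channel of cholangiocytes, had no count in any of the 8 libraries, and Sctr, the secretin receptor, had 3 counts in 1 library and none in the rest. Epcam had 6 to 24 counts a library and log2 fold change -0.37 in WT (SE 0.581), and Sox9, a transcription factor of the biliary lineage, was not called in that comparison either (0.06, SE 0.0735). Krt7 is at the limit of detection as given above. The part of cholangiocytes in the Krt19 result was not tested beyond these values, and fewer cells of a type and less RNA per cell cannot be told apart in such bulk libraries.

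**Figure D5:**
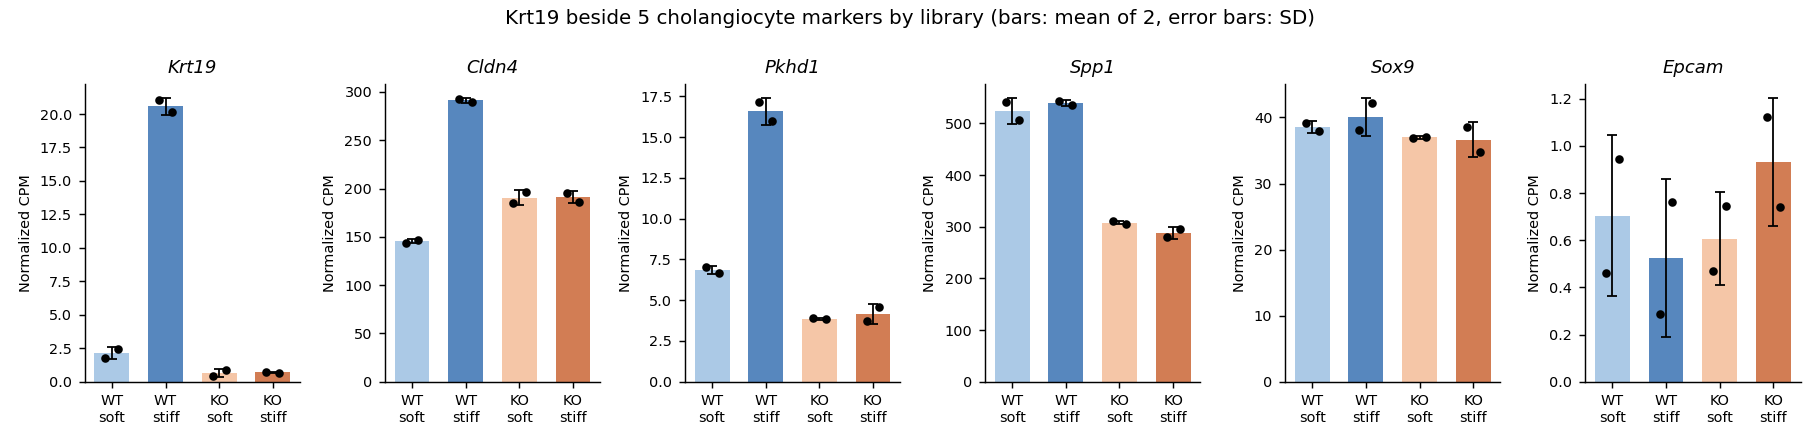
Normalized CPM (linear axes from 0, each panel with its own range) of Krt19 and 5 other cholangiocyte genes in the 4 groups; points are libraries, bars the mean of 2 and error bars the SD. Krt19, Cldn4 and Pkhd1 are highest in WT stiff, Spp1 is at 280 to 310 CPM in the KO libraries and 507 to 543 CPM in WT, Sox9 is between 34.8 and 42.1 CPM in every library, and Epcam between 0.289 and 1.12 CPM.

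Markers of other cells moved with the groups in the order of Krt5. Summed over 10 Kupffer cell and macrophage genes the level was 88.3 to 91.7 CPM in WT soft, 62.1 to 67.5 in WT stiff, 127 to 129 in KO soft and 129 to 131 in KO stiff. Over 8 endothelial genes it was 83.6 to 89.7, 58.6 to 61.9, 111 to 113 and 115 to 117 CPM, and over 8 stellate cell and fibroblast genes 32.5 to 32.7, 20.3 to 22.0, 44.0 to 45.1 and 46.2 to 49.3 CPM in the same order. In WT stiff against soft 5 of 10, 4 of 8 and 4 of the 6 tested genes of these lists fell, 1 stellate gene rose, and in KO against WT on the stiff hydrogel 9, 6 and 5 rose and 1 stellate gene fell. DESeq2 called 4, 4 and 5 in WT, and 8, 6 and 4 in KO against WT on stiff. Of all tested genes, edgeR called 19.3% in WT and 28.7% in KO against WT on stiff. Mesothelial cells, which carry Krt8, Krt18, Krt19 and Krt7, left 0.152 to 0.468 CPM over 8 genes, none of which could be tested. Of the hepatocyte genes 3 fell in WT on the stiff hydrogel and none rose (8 of 9 at an unadjusted p under 0.05 in edgeR, 2 called by DESeq2), and in KO against WT 3 fell on soft, and 2 rose and 2 fell on stiff. In KO against WT on soft, 6.67% of all tested genes were called. In KO stiff against soft, none of the stellate, endothelial, Kupffer or hepatocyte genes was called in edgeR or DESeq2 (1, 0, 0 and 0 at an unadjusted p under 0.05 in edgeR). There, edgeR called 0.0210% of all tested genes. The part of these cells in the keratin results was not tested.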

How the data were processed

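RNA of mouse primary hepatocytes was measured by poly(A) RNA sequencing in 2 libraries for each of 4 groups. The authors aligned paired-end reads of 150 bases with HISAT2 and assigned them with featureCounts. The values in the deposited file are raw counts per gene, not normalized. The submitters' processing notes name HISAT2 2.0.5, DESeq2 1.20.0, edgeR 3.22.5, GATK 4.1.4.1 and mm9. How strand and reads matching several genes were counted is not given in the sources used here. Levels of genes that share sequence therefore carry the authors' rule.

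Groups came from the labels. Analysis was done in edgeR 4.0.16 under R 4.3.3. Genes were filtered by filterByExpr (14279 of 56748 kept), scaled by TMM (factors 0.978 to 1.02) and fitted with glmQLFit, all 8 libraries in 1 model with 4 residual degrees of freedom and a common biological coefficient of variation of 0.0542. Comparisons used glmQLFTest with Benjamini-Hochberg adjustment over all genes tested. Calls needed an adjusted p below 0.05 together with a log2 fold change above 0.5 in size. SE is the absolute log2 fold change over the square root of F. Normalized CPM is the count over the product of tested total and TMM factor, and levels per length divide it by the table's gene length. Pearson's r used log2 CPM with a prior count of 2. Shared sequence was measured in windows of 64 bases on GENCODE M21 transcripts. Replicates differed by more than sampling noise in every group (chi-square per degree of freedom 2.62 to 5.45).

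Alternatives covered the tool (DESeq2 1.42.0), scaling, filters, robust empirical Bayes, the fold threshold, a term for the replicate number, fits of 4 libraries and each library left out. The steps were tested on simulated data. The members and gene lists were chosen with earlier results of these data known. The text names the members, the extremes of each list, the other tested keratins, Yap1, Wwtr1 and the 3 genes most like each tested member, of which some are not reported here. Others (Alb, Hnf4a, Lmnb2, Lmnb1, Hspb1, Tgm2, Hspa1b, Sqstm1, Vim, Dsp, Jup, Plec, Dsg2, Ppl, Cldn4, Prom1, Spp1, Sox9, Epcam, Cftr, Sctr and Krt8-ps) were chosen after their values were seen, or as defining genes of their list. A hepatocyte gene, Tf, was not used here. Figures were drawn with matplotlib 3.10.9.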

Additional observations from a re-analysis of the deposited data

Results flagged for a closer look

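The effect of the stiff hydrogel differed between KO and WT by the test of the interaction itself for 5 keratins, and the values are given without an explanation. The KO minus WT difference in the log2 effect of stiffness was -3.12 for Krt19, -0.708 for Krt18 and -0.516 for Krt8. It was 1.6 for Krt5 and 3.84 for Krt24, of which the second rests on 3 counts in WT stiff. Of all tested genes, 16.8% had an interaction past both thresholds. No group had enough libraries for a test of single libraries that stand apart.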

How the results depend on the processing

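Of 196 log2 fold changes of the 4 tested keratins under alternatives other than leaving out a library, 190 kept direction and call. With a fold threshold of 1 on the log2 scale, Krt8 (0.57) and Krt18 (0.76) were no longer called in WT, nor their interactions (-0.52 and -0.71), nor Krt8 in KO against WT on stiff (-0.94), which left 1 keratin called in WT and 1 in the interaction. The genes called under that threshold were 1244 in WT, 1 in KO, 1040 in the interaction, 353 in KO against WT on soft and 2097 on stiff. Without a filter Krt23 was called in WT (0.99), and 50 genes were called in KO stiff against soft, against 3 in the reported fit, 1 with robust empirical Bayes and 9 in the fit of 4 libraries. With each library left out in turn, 154 of 160 values of the keratins kept direction and call. The genes called in KO stiff against soft were then 1 to 8. Krt23 ranged from 0.32 to 1.89 in WT, from -2.09 to -0.51 in the interaction and from 0.19 to 1.77 in KO against WT on soft, where 1 or 2 keratins were called. The Krt8 interaction ranged from -0.57 to -0.49, and in the KO Krt19 ranged from -0.28 to 0.69 and Krt23 from -0.41 to 0.027, so that both reversed. The cause was not tested.

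Shares in the summed level of the 5 genes as raw counts, with no division by length, were for WT soft, WT stiff, KO soft and KO stiff 60.3%, 57.0%, 61.1% and 61.1% in Krt8, 39.6%, 42.8%, 38.9% and 38.9% in Krt18, and 0.000749%, 0.000344%, 0.000298% and 0.00144% in Krt7. Those of Krt19 were 0.148% in WT stiff and 0.0103% in KO stiff. These settings differ by the division by gene length alone.

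Deviations of equally numbered libraries from their group means correlated at 0.020 in WT, -0.027 in KO, 0.042 on soft and -0.023 on stiff, so no pairing by number was seen. All tested genes entered with equal weight, low-count genes included, so a weak pairing could be missed. With the replicate block 2705 genes were called in WT, 3 in KO, 2330 in the interaction, 895 in KO against WT on soft and 4071 on stiff, and the keratin calls stayed at 3, 0, 3, 1 and 3. Depth limits Krt7 and Krt23, and 2 libraries a group limit every error given.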
